A study of Homo sapiens with 12 samples.

Results

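The 9 genes described here encode parts of the HLA class I antigen presentation pathway and were chosen as a list by symbol: HLA-B, HLA-C, HLA-E, B2M, TAP1, TAP2, TAPBP, PSMB9 and NLRC5. All 9 were found by Ensembl identifier among the 61541 genes of the count table, and all 9 were among the 16768 genes that passed the filter on low counts.

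HLA class I molecules carry short peptides from the cell's own proteins to its surface, where CD8 T cells and natural killer cells inspect them. HLA-B and HLA-C are classical heavy chains, HLA-E is a nonclassical heavy chain read by natural killer cell receptors, and B2M is the light chain that every one of these heavy chains needs in order to reach the surface. Peptides are cut by the proteasome, in which interferon can exchange a constitutive subunit for PSMB9, are pumped into the endoplasmic reticulum by the TAP1-TAP2 transporter, and are loaded with the help of tapasin, the product of TAPBP. NLRC5 is the transactivator that drives transcription of several of these genes in many cell types, tumour cells included, and loss of the pathway is a known way by which tumours become less visible to T cells.

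RNA sequencing was done on 12 libraries labelled as the human lung adenocarcinoma line A549, in 4 groups of 3. Lone control cells carried the non-targeting guide gNTC1, lone knockout cells (TS-KO) carried a Cas9 guide to TYMS, which encodes the enzyme that makes the DNA precursor dTMP, and each kind was also grown in co-culture. All groups received a guide by transduction, were grown in DMEM with high glucose and 10% fetal bovine serum, and are labelled 14 days after transduction. The series text names parental A549 as the partner of the co-cultured knockout and states that proliferation was restored there. The labels name no partner for the co-cultured control, do not say whether partners were separated before RNA was taken, and do not say whether the knockout was 1 clone or a pool. A co-culture library may therefore hold RNA of both kinds of cell, and more cells of a kind cannot be told apart from more RNA per cell.

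Library totals ran from 14921371 to 35723762 counts. TYMS was at 90.3 to 101 CPM (counts per 1000000 counts after TMM scaling, which adjusts library sizes for composition) in the 6 libraries labelled control at 20.3 to 21.4 CPM in the 3 lone knockout libraries and at 10.7 to 11.4 CPM in the 3 co-cultured ones. TYMS, the targeted gene, thus fell further with co-culture of the knockout, without overlap (log2 -0.92, edgeR adjusted p = 0.000307). A549 is known for a homozygous deletion that removes CDKN2A and MTAP. CDKN2A was nevertheless at 54.7 to 116 CPM and MTAP at 43.8 to 79.5 CPM in the libraries labelled control, against at most 0.119 and 0.647 CPM in the knockout libraries. EPCAM, an epithelial surface protein, was at 94.4 to 119 CPM and at most 0.913 CPM in the same order. The other epithelial markers did not all go that way: of the 5 on the list, EPCAM included, 3 were called lower, 1 (KRT7) higher and 1 (KRT18) not called in the lone knockout against control, and their sums overlapped, at 9698 to 15636 CPM in the lone control libraries and 9680 to 13403 CPM in the lone knockout. The 6 enzyme genes listed as A549 markers (AKR1B10, AKR1C1, AKR1C2, NQO1, ALDH1A1 and ALDH3A1) were expressed in both kinds of library. They summed to 5494 to 6437 CPM in the lone control libraries and 11861 to 12394 CPM in the lone knockout. Of the 6, 5 were called higher in the lone knockout, as were 28% of all genes. By CDKN2A and MTAP the libraries labelled control thus go against their A549 label. In every comparison between genotypes the knockout cannot be told apart from this difference. The 2 comparisons within a genotype do not set these libraries against the others. Base composition also differed between replicates: across 9915 genes the rank correlation between a library's deviation from its group mean and transcript GC content ran from -0.87 in co-cultured knockout replicate 3 to 0.86 in co-cultured knockout replicate 2. Fold changes were also refitted with GC offsets, which were fitted to each library's deviations from the mean of all 12 libraries, not of its group. These offsets therefore remove GC-related differences between groups as well as between replicates. The refitted values are given below where they alter a call or a direction or move a called value by over 1.5 times.

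Of the 9 genes, 7 lie in the major histocompatibility complex on chromosome 6, B2M is on chromosome 15 and NLRC5 on chromosome 16. On GRCh38 with GENCODE 29, HLA-B spans chr6:31269491-31357188 and HLA-C chr6:31268749-31272130, both on the minus strand. This annotated span of HLA-B runs into HLA-C, with 35 exonic bases in common, while its principal transcript is only 1547 bases long. B2M spans chr15:44711487-44718877 on the plus strand. TAP1 (chr6:32845209-32853978, minus strand) and PSMB9 (chr6:32844136-32859585, plus strand) overlap and are read in opposite directions. Their RefSeq start sites, whose upstream windows share 13 bases, lie 488 bases apart.

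Upstream sequence was held in the RefSeq promoter table (GRCh38.p14) for 7 of the 9 genes. The windows of HLA-B, HLA-C and B2M are shown because the 2 heavy chains were the members furthest below the libraries labelled control and because HLA-B and B2M were the members called higher in the co-cultured knockout. Each runs 5′ to 3′ in the direction of transcription, from 250 to 51 bases before the start site, at chr6:31357230-31357429 (minus strand), chr6:31272143-31272342 (minus strand) and chr15:44711267-44711466 (plus strand). Capitals mark matches, on either strand, to GAAA, NN and GAAA in a row (the interferon-stimulated response element, ISRE), GAA, NN and GAAA (a shortened form of it, added after the sequences were seen), GGG, NN and TTCCC (kappa B), CCAAT and TGACG, and adjoining or overlapping matches run together.
HLA-B: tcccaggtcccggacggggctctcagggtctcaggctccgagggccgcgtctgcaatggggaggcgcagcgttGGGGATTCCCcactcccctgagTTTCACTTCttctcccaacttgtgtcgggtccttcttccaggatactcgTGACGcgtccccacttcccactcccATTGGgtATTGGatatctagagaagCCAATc
HLA-C: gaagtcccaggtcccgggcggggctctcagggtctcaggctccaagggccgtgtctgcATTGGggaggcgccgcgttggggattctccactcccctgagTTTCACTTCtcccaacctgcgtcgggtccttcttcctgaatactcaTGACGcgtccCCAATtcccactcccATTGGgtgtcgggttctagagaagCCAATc
B2M: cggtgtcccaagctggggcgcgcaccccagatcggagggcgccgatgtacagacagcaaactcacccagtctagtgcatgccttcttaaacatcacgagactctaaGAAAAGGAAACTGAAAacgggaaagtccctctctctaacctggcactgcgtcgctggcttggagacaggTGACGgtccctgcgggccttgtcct
HLA-B and HLA-C were identical at 181 of 204 aligned columns (88.7%), against 49.8% between HLA-B and B2M. In B2M the capitals GAAAAGGAAACTGAAA hold a pair of overlapping ISRE matches at positions -144 to -129. Both heavy chains hold the shortened ISRE match TTTCACTTC and a TGACG, at -106 to -102 in HLA-B and -105 to -101 in HLA-C, and HLA-B alone of the 7 genes holds the kappa B match GGGGATTCCC at -177 to -168. Over the 250 searched bases, B2M also held a CCAAT match, at -49 to -45, just past the bases shown. ISRE matches were also present at TAP1, TAP2 and TAPBP, and 3.02% of the 35116 windows in the table held an ISRE match. The other motifs above were in 6.56% (shortened ISRE), 1.97% (kappa B), 32.0% (CCAAT) and 21.2% (TGACG) of windows. A further motif, TTC, NNN and GAA in a row (named GAS), was searched as well. It was in 6.57% of windows and, of the 7 genes, matched at TAP1 alone. A match describes the letters only, and no binding was measured.

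**Figure D1:**
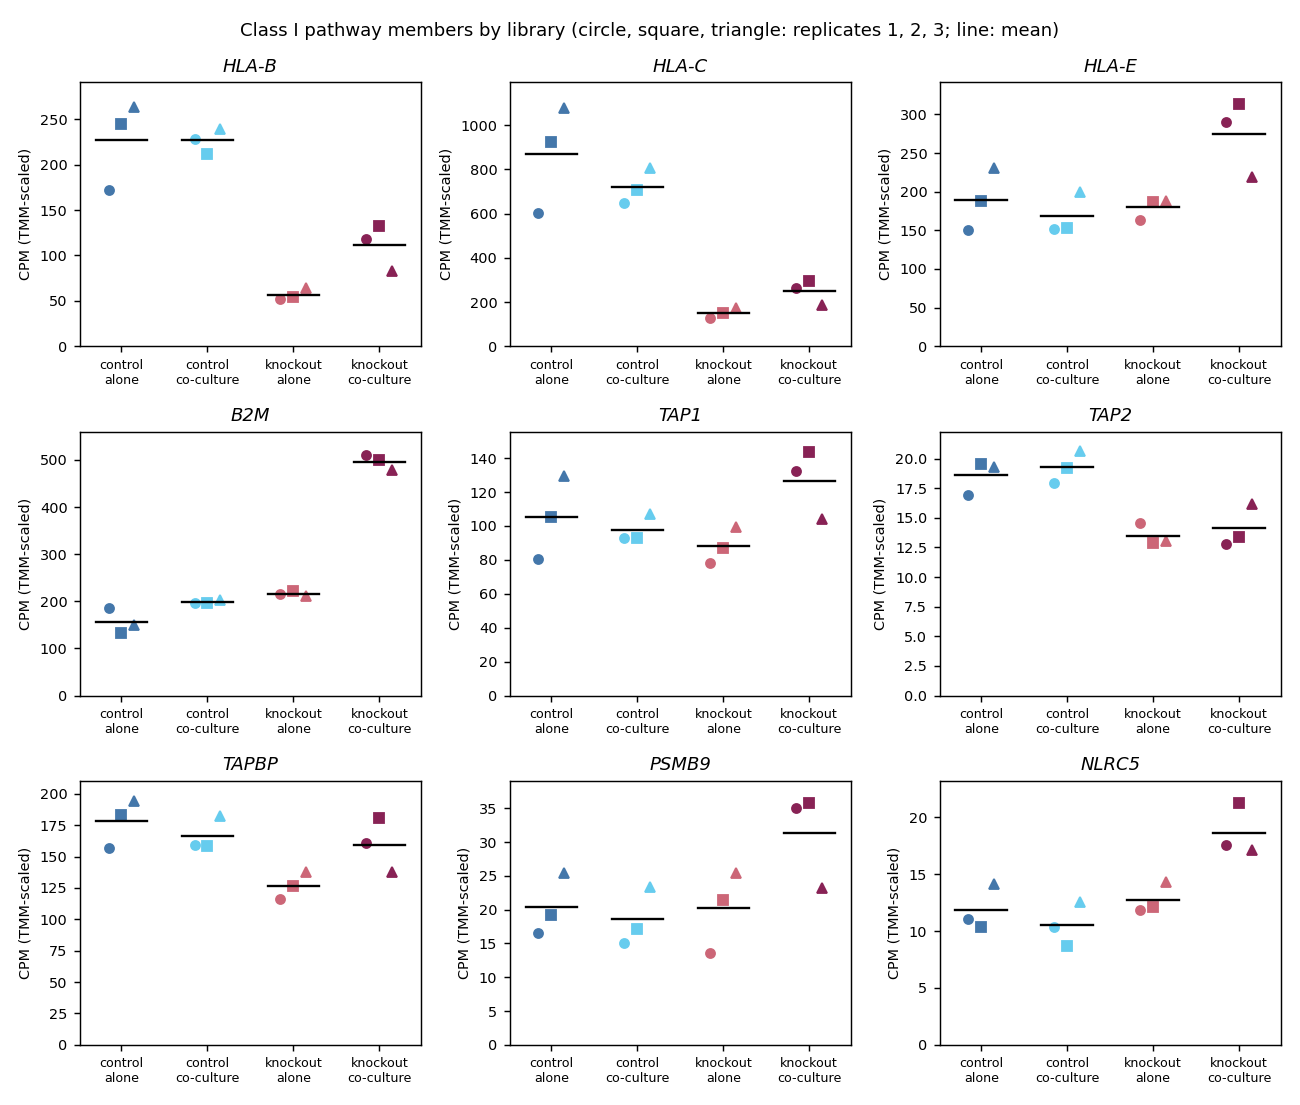
Level of each of the 9 genes in each library, in TMM-scaled CPM on a linear axis from 0, with 1 panel per gene, 1 column per group and a line at the mean of 3. HLA-B and HLA-C sit lowest in the lone knockout, while B2M stands near 500 CPM in the co-cultured knockout and at or below 222 CPM in the other 3 groups.

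The first comparison asked how the pathway's RNA differed between lone knockout cells and the lone libraries labelled control. The classical heavy chains were far lower in the knockout, B2M was modestly higher, TAP2 and TAPBP were modestly lower, and HLA-E, TAP1, PSMB9 and NLRC5 did not pass the test. Called means an adjusted p under 0.05 in edgeR's quasi-likelihood test with Benjamini-Hochberg adjustment over all genes tested. Of the 9 genes, 1 was called higher and 4 lower, while 56.6% of all genes tested were called (28% higher and 28.6% lower), so the share of members called was near the background. The 3 and 3 values did not overlap for 5 members, 1 with the knockout higher and 4 with it lower, as for 65.2% of all genes (33.8% higher and 31.5% lower). The members' median log2 fold change was -0.26, against 0.09 over all genes.

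HLA-C, the most abundant of the 3 heavy chains in the libraries labelled control, was at 604, 922 and 1079 CPM in the lone control libraries and at 129, 152 and 171 CPM in the lone knockout. Every knockout library lay below every control library. The mean was 869 ± 242 against 151 ± 20.9 CPM (SD, n = 3 each). HLA-C was thus 5.76-fold lower, a log2 difference of -2.53 (SE 0.24, edgeR adjusted p = 1.72e-06). HLA-B was at 172, 245 and 264 CPM in the lone control libraries and at 52.0, 54.7 and 64.1 CPM in the lone knockout. The groups again did not overlap, with HLA-B 3.98-fold lower in the knockout (log2 -1.99, SE 0.20, edgeR adjusted p = 3.30e-06). With GC offsets both stayed called, at -1.29 for HLA-B and -1.73 for HLA-C, the former moving by over 1.5 times. HLA-B and HLA-C are paralogs, and 2.72% and 5.38% of the 50-base stretches of their reference transcripts occur in other genes. The shares that occur in each other were 2.48% for HLA-B and 2.87% for HLA-C. Part of their counts may therefore be split between paralogs. These shares describe the reference only, and the alleles that the cells carry were not examined.

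HLA-E, the nonclassical heavy chain, did not share this difference: it was at 151, 187 and 230 CPM in the lone control group and at 163, 187 and 189 CPM in the lone knockout libraries. The knockout values lay inside the control range. The log2 fold change was -0.08 (SE 0.19, edgeR adjusted p = 0.743), with an interval of 2 SE from -0.45 to 0.29. With GC offsets HLA-E was called higher (log2 0.52, edgeR adjusted p = 7.71e-05), and without lone control replicate 3 its value was 0.06, so its direction depends on the processing.

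B2M, the light chain, was at 185, 132 and 150 CPM in the lone control group and at 216, 222 and 211 CPM in the lone knockout libraries. All 3 knockout values were above all 3 control values. The log2 fold change was 0.47 (SE 0.13, edgeR adjusted p = 0.00929). This call ended without lone control replicate 2 (log2 0.36, edgeR adjusted p = 0.0586) and with no filter on low counts (edgeR adjusted p = 0.0665), and B2M, whose transcript GC content of 40.6% is the lowest of the 9, turned to -0.11 (edgeR adjusted p = 0.713) with GC offsets.

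Of the transporter, TAP1 was at 80.3, 105 and 130 CPM in the lone control group and 78.0, 86.7 and 99.1 CPM in the lone knockout libraries, and these ranges overlapped. Its log2 fold change was -0.26 (SE 0.18, edgeR adjusted p = 0.241). TAP2 was at 16.9, 19.5 and 19.3 CPM in the control and 14.6, 12.8 and 13.02 CPM in the knockout, without overlap. Its log2 difference was -0.46 (SE 0.16, edgeR adjusted p = 0.0230), and the call ended with scaling by library size alone (log2 -0.29, edgeR adjusted p = 0.181) and with no filter on low counts (edgeR adjusted p = 0.145). It ended as well without lone control replicate 2 or 3 or lone knockout replicate 2 or 3, with edgeR adjusted p between 0.0567 and 0.0758. TAP2 counts are uncertain in another way, since 2064 exonic bases, with 31.3% of its 50-base stretches, are shared with the overlapping gene AL669918.1.

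Tapasin bridges the transporter and the empty heavy chain. Its gene TAPBP was at 157, 183 and 195 CPM in the lone control group and 116, 127 and 138 CPM in the lone knockout, without overlap, a log2 difference of -0.49 (SE 0.14, edgeR adjusted p = 0.0104). With GC offsets this turned to 0.25 (edgeR adjusted p = 0.0148), so the direction for TAPBP, whose GC content is 60.8%, rests on the treatment of base composition. The immunoproteasome subunit PSMB9 was at 16.6, 19.2 and 25.5 CPM in the control and 13.5, 21.5 and 25.5 CPM in the knockout, nearly the same range (log2 -0.02, SE 0.27, edgeR adjusted p = 0.955). Its value turned positive with scaling by library size alone (0.15), without lone control replicate 3 (0.14) and without lone knockout replicate 1 (0.20). NLRC5 was at 11.03, 10.3 and 14.2 CPM in the control and 11.9, 12.1 and 14.3 CPM in the knockout (log2 0.11, SE 0.20, edgeR adjusted p = 0.665), and its ranges overlapped. With GC offsets NLRC5 was called higher at 0.60 (edgeR adjusted p = 0.00147), and without lone knockout replicate 3 its value was -0.003.

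**Figure D2:**
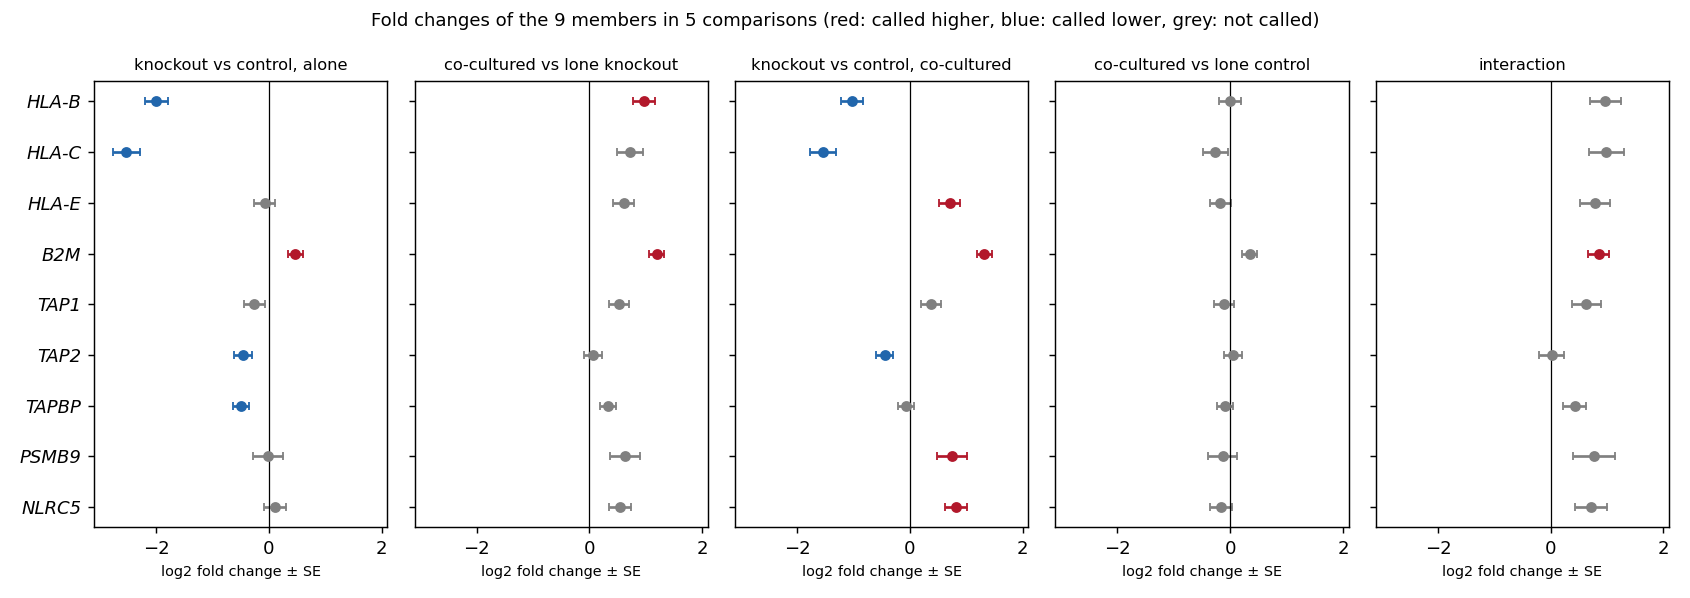
Log2 fold change (x axis) of the 9 genes (rows) in the 5 comparisons (panels), with bars of 1 SE and colour by edgeR call. HLA-B and HLA-C lie left of 0 in both comparisons between genotypes and right of 0 in the co-cultured knockout, and all 9 genes are grey in the control.

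The second comparison asked what differed in knockout cells when they were grown in co-culture, with both groups carrying the TYMS guide. B2M and HLA-B were higher in co-culture, and the other 7 genes had positive fold changes that did not pass the test. Of the 9 genes 2 were called, both higher, while 11.4% of all genes tested were called (5.97% higher and 5.4% lower). The 3 and 3 values did not overlap, with co-culture higher, for 6 members (HLA-B, HLA-C, HLA-E, B2M, TAP1 and NLRC5), as for 16.7% of all genes, and 31.5% did not overlap in either direction. The members' median log2 fold change was 0.61, against 0.01 over all genes. Among all genes called, 1001 were higher and 906 lower. With scaling by library size alone, the split was 989 higher and 431 lower.

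B2M was at 216, 222 and 211 CPM in the lone knockout libraries and at 510, 499 and 478 CPM in the co-cultured knockout. The groups were far apart and each was tight, at 216 ± 5.75 and 496 ± 15.9 CPM (SD, n = 3 each). B2M was 2.29-fold higher in co-culture, a log2 difference of 1.20 (SE 0.14, edgeR adjusted p = 0.000199). With GC offsets the value was 1.86, over 1.5 times as large. The co-cultured knockout level also stood above both control groups, whose highest library was at 203 CPM.

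HLA-B was at 118, 133 and 83.4 CPM in the co-cultured knockout, against 52.0, 54.7 and 64.1 CPM in the lone knockout. All 3 co-culture libraries were above the lone ones, replicate 3 least so. HLA-B was 1.96-fold higher (log2 0.97, SE 0.19, edgeR adjusted p = 0.00896), and the call held in all 20 alternatives, whose adjusted p reached at most 0.0489. HLA-C was at 263, 297 and 186 CPM in co-culture against 129, 152 and 171 CPM alone, also without overlap. Its log2 difference of 0.72 (SE 0.22) missed the threshold (edgeR adjusted p = 0.0554), with an interval of 2 SE from 0.27 to 1.17. HLA-E was at 290, 314 and 219 CPM in co-culture against 163, 187 and 189 CPM alone, without overlap (log2 0.61, SE 0.19, edgeR adjusted p = 0.0515).

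TAP1 was at 132, 144 and 104 CPM in the co-cultured knockout (log2 0.53 against the lone knockout, SE 0.18, edgeR adjusted p = 0.0770) and did not overlap with the lone libraries. TAP2, its partner in the transporter, was at 12.8, 13.4 and 16.2 CPM, and the groups overlapped (log2 0.07, SE 0.16, edgeR adjusted p = 0.798). The interval of 2 SE for TAP2 ran from -0.25 to 0.38. TAPBP was at 160, 181 and 137 CPM, with replicate 3 inside the lone knockout's range (log2 0.33, SE 0.14, edgeR adjusted p = 0.139). PSMB9 was at 35.1, 35.8 and 23.2 CPM, again with replicate 3 inside that range (log2 0.64, SE 0.26, edgeR adjusted p = 0.128). NLRC5 was at 17.6, 21.3 and 17.1 CPM, above all lone libraries (log2 0.55, SE 0.20, edgeR adjusted p = 0.0853).

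Co-cultured knockout replicate 3 was the lowest of its group for 8 of the 9 genes, TAP2 being the exception, and it is the library with the most negative relation to GC content. Without it, 8 of the 9 genes were called higher, all but TAP2, among 5680 genes called in all. HLA-C was then at log2 0.90 (edgeR adjusted p = 0.00534), HLA-E at 0.75, TAP1 at 0.65, TAPBP at 0.43, PSMB9 at 0.82 and NLRC5 at 0.61. The main fit called 1907 genes. Without lone control replicate 1 the count was 5 members among 2055 genes, and without lone control replicate 3 it was 4 among 1882. With GC offsets 5 members were called, namely HLA-B, HLA-C, HLA-E, B2M and TAP1, among 4953 genes. By DESeq2 the count was 6 among 3239 genes. It was also 6 with no filter on low counts (3340 genes) and with scaling by library size alone (1420 genes). A fit of the 6 knockout libraries by themselves called 2, HLA-B and B2M, among 664 genes. No setting gave fewer than 2, and the HLA-C, HLA-E and TAP1 calls depend on the processing.

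**Figure D3:**
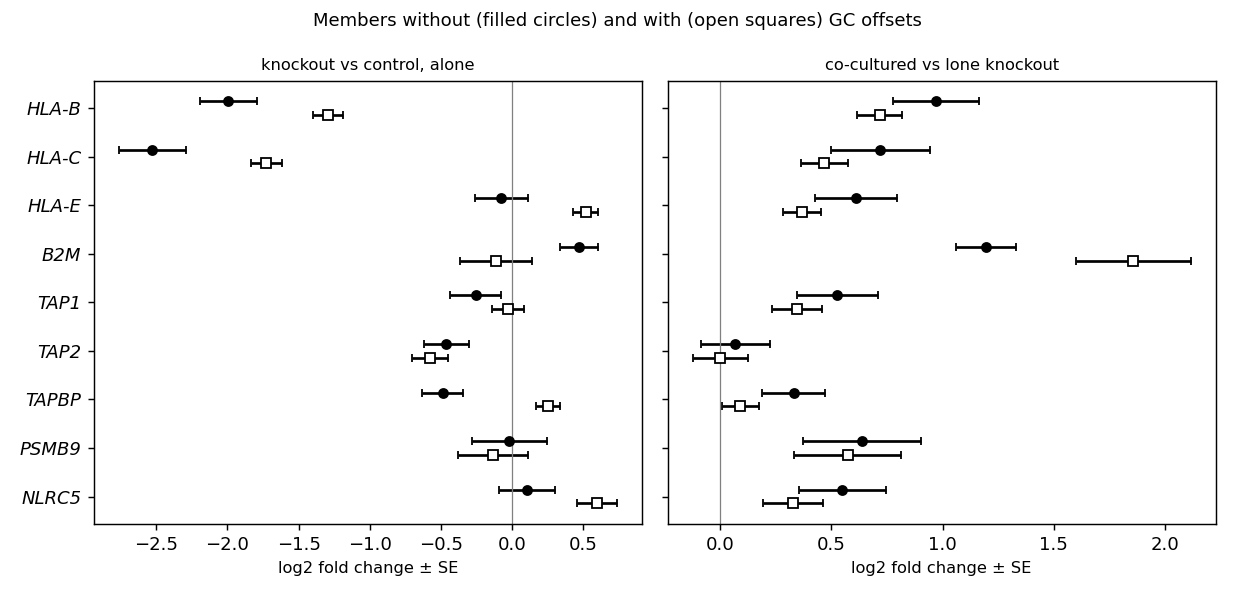
Log2 fold changes with bars of 1 SE for the 9 genes without (filled circles) and with (open squares) GC offsets, in the lone knockout against control and in the co-cultured against lone knockout. B2M, HLA-E and TAPBP change side of 0 in the left panel, while in the right panel no gene other than TAP2, near 0, changes side.

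Markers of other cell types were low in both knockout groups, apart from the mesenchymal list, whose sum was nearly all VIM. The 6 leukocyte markers together summed to 1.03 to 1.27 CPM in the lone knockout group and 3.02 to 4.62 CPM in the co-cultured knockout, and 3 and 2 of the 6 were at 0 in all libraries of these groups. Only 2 of the 6 passed the filter, and 1 of those was called higher in co-culture. The 3 endothelial markers summed to at most 0.634 CPM in the knockout groups. The 4 HLA class II genes summed to 5.73 to 7.79 CPM in the lone and 9.89 to 10.99 CPM in the co-cultured knockout. The 3 of them that were tested were each higher in co-culture without overlap, none was called, and their part in the result was not tested. EPCAM, CDKN2A and MTAP stayed under 1 CPM in the co-cultured knockout. Because A549 is known to lack CDKN2A and MTAP, their levels cannot show whether RNA of an A549 partner was present. The part of the leukocyte markers was not tested. The 5 mesenchymal markers summed to 1096 to 1226 CPM in the lone and 876 to 906 CPM in the co-cultured knockout, and their part in the result was not tested. VIM alone was at 1074 to 1202 CPM in the lone and 863 to 891 CPM in the co-cultured knockout. COL1A1 was at 21.4 to 24.1 and 12.4 to 16.3 CPM in the same order, and COL1A2, DCN and PDGFRB stayed under 1 CPM.

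The third comparison was between genotypes within co-culture, with the libraries labelled control as the reference. HLA-B, HLA-C and TAP2 were lower in the knockout, and HLA-E, B2M, PSMB9 and NLRC5 were higher. Thus 7 of the 9 genes were called, 4 higher and 3 lower, where 49.4% of all genes were called (24.1% higher and 25.3% lower). For 6 members the values did not overlap, 3 in each direction, as for 55.4% of all genes (26.9% higher and 28.5% lower).

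HLA-C was at 650, 708 and 805 CPM in the co-cultured control libraries, far above the 263, 297 and 186 CPM of the co-cultured knockout. The difference was 2.90-fold (log2 -1.54, SE 0.23, edgeR adjusted p = 0.000106). HLA-B was at 229, 212 and 240 CPM in the co-cultured control and was 2.03-fold lower in the knockout (log2 -1.02, SE 0.19, edgeR adjusted p = 0.000727). HLA-E was at 152, 153 and 199 CPM in the co-cultured control, below every co-cultured knockout library, and was higher in the knockout by log2 0.71 (SE 0.19, edgeR adjusted p = 0.00673). B2M was at 196, 196 and 203 CPM in the co-cultured control and 2.50-fold higher in the knockout (log2 1.32, SE 0.14, edgeR adjusted p = 4.32e-06). Heavy chain and light chain RNA therefore differed in opposite directions between these groups for HLA-B and HLA-C.

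NLRC5 was at 10.4, 8.73 and 12.6 CPM in the co-cultured control and higher in the knockout without overlap (log2 0.82, SE 0.20, edgeR adjusted p = 0.00366). PSMB9 was at 15.1, 17.2 and 23.4 CPM there, overlapping with the knockout through its replicate 3 (log2 0.75, SE 0.26, edgeR adjusted p = 0.0306). The PSMB9 call ended without replicate 1 or 2 of either co-cultured group, with edgeR adjusted p from 0.0913 to 0.117. TAP2 was at 17.9, 19.2 and 20.6 CPM in the co-cultured control and lower in the knockout (log2 -0.45, SE 0.16, edgeR adjusted p = 0.0293). That call also ended in 4 of the fits that leave a library out (co-cultured control replicate 2 or 3, co-cultured knockout replicate 1 or 2), with edgeR adjusted p from 0.0634 to 0.103. It ended too with no filter on low counts (edgeR adjusted p = 0.340), with scaling by library size alone (0.0880) and in a fit of the 6 co-cultured libraries by themselves (0.109). TAP1 was at 93.0, 92.7 and 107 CPM in the co-cultured control (log2 0.37 for the knockout against it, SE 0.18, edgeR adjusted p = 0.105). It was called without co-cultured knockout replicate 3 (0.50, edgeR adjusted p = 0.0319), with scaling by library size alone (0.40, edgeR adjusted p = 0.00563) and with GC offsets (0.38, edgeR adjusted p = 0.00682). TAPBP was at 159, 159 and 182 CPM there and did not pass the test (log2 -0.06, SE 0.14, edgeR adjusted p = 0.739). With GC offsets TAPBP was called higher at 0.27 (edgeR adjusted p = 0.0102), and without co-cultured knockout replicate 3 its value was 0.04.

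In the libraries labelled control, co-culture and lone growth were compared last. None of the 9 genes was called by edgeR, and 0% of all genes were. At an unadjusted p under 0.05 there were 540 genes (3.22%), B2M among them as 1 of the 9, and DESeq2 called no gene. The members' log2 fold changes ran from -0.27 (HLA-C) to 0.35 (B2M). B2M was the 1 member whose groups did not overlap, where 7.39% of all genes did not (4.48% higher and 2.9% lower). It was at 196, 196 and 203 CPM in co-culture against 185, 132 and 150 CPM alone (log2 0.35, SE 0.13, edgeR adjusted p = 1). HLA-B had nearly the same mean in both groups, at 227 ± 13.9 and 227 ± 48.4 CPM (SD, n = 3 each), with an interval of 2 SE for the log2 fold change from -0.38 to 0.38.

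Whether the co-culture difference was itself larger in the knockout than in the control was tested as an interaction. Of the 9 genes, B2M alone was called, where 1.8% of all genes were called (1.51% higher and 0.286% lower). For B2M the co-culture difference was larger in the knockout by log2 0.85 (SE 0.19, edgeR adjusted p = 0.0406). That call ended without each of 9 of the 12 libraries in turn, with edgeR adjusted p up to 0.130. It held without lone control replicate 1, lone control replicate 2 or co-cultured knockout replicate 3, and with GC offsets the value was 1.57 (edgeR adjusted p = 0.0185). The values for HLA-B (log2 0.97, SE 0.27, edgeR adjusted p = 0.101) and HLA-C (log2 0.99, SE 0.32, edgeR adjusted p = 0.144) were larger but less certain, and HLA-E (0.78, edgeR adjusted p = 0.163) did not pass either. For TAP2 the value was 0.02, with an interval of 2 SE from -0.43 to 0.46. Without co-cultured knockout replicate 3, 5 members were called (HLA-B, HLA-C, HLA-E, B2M and TAP1), among 3623 genes in all. Without lone control replicate 1 it was 3 members, among 343 genes. With GC offsets 4 were called (HLA-B, HLA-C, HLA-E and B2M), with values of 0.55, 0.53, 0.42 and 1.57, among 1580 genes. In the main fit 301 genes were called.

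Within a library the balance between chains is free of the scaling between libraries, but not of the GC trend. Transcript GC content is 40.6% for B2M and 61.3% for HLA-C. Their ratio was 0.307 in lone control replicate 1, whose deviations had a rank correlation with GC content of -0.78. It was 0.139 in lone control replicate 3, where that correlation was 0.77. The part of GC content in these ratios was not tested. The ratio of B2M to HLA-C counts was 0.197 ± 0.0954 in the lone control, 0.277 ± 0.0247 in the co-cultured control, 1.45 ± 0.218 in the lone knockout and 2.06 ± 0.463 in the co-cultured knockout (SD, n = 3 each). No control library overlapped with a knockout library. The ratio of HLA-E to HLA-C counts was 0.222 ± 0.0246 in the lone control and 0.233 ± 0.0153 with co-culture, against 1.198 ± 0.0854 in the lone knockout and 1.11 ± 0.0629 with co-culture. This nonclassical to classical ratio overlapped between lone and co-cultured knockout. The ratio of HLA-B to HLA-C counts had a mean of 0.265 in the lone control and 0.317 with co-culture, and of 0.379 in the lone and 0.449 in the co-cultured knockout. In the co-cultured knockout its 3 values, 0.451, 0.447 and 0.449, lay close together although HLA-B itself varied from 83.4 to 133 CPM. These ratios are descriptions, and a ratio of counts shows unequal change without saying which gene moved.

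**Figure D4:**
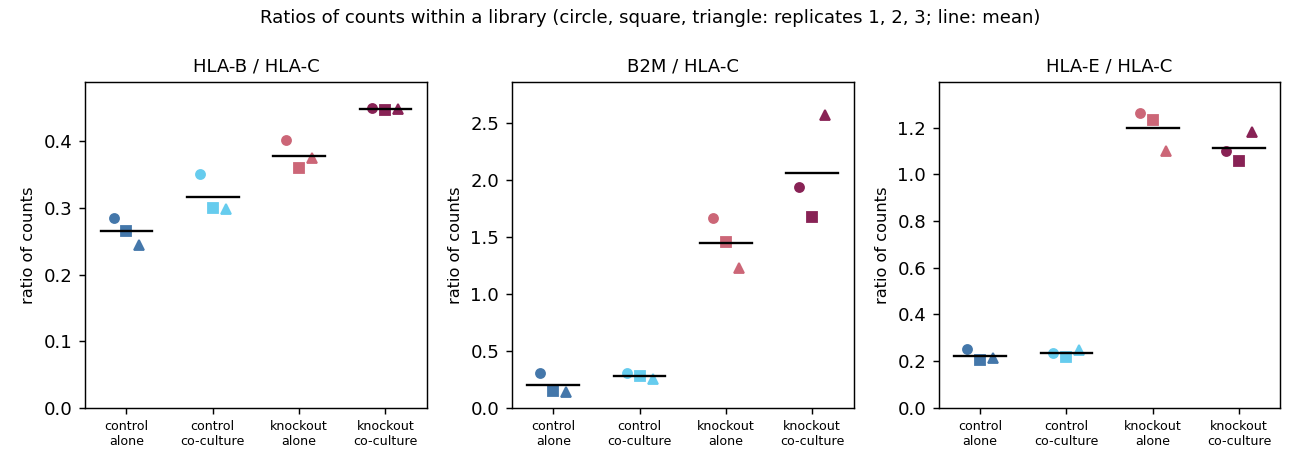
Ratios of counts within each library for HLA-B to HLA-C, B2M to HLA-C and HLA-E to HLA-C, on linear axes from 0, by group with a line at the mean of 3. B2M to HLA-C lies at or below 0.307 in all 6 libraries labelled control and at or above 1.23 in all 6 knockout libraries.

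Levels can be ordered between genes once divided by transcript length, here the principal GENCODE transcript in kilobases. In the lone control HLA-C was highest at 565 ± 158 CPM per kilobase, followed by HLA-B at 147 ± 31.3. TAPBP (94.3 ± 10.2), B2M (91.5 ± 15.8) and HLA-E (72.8 ± 15.2) came next, each overlapping with its neighbour. TAP1 (35.5 ± 8.33) and PSMB9 (26.1 ± 5.83) overlapped as well, and TAP2 (7.44 ± 0.577) and NLRC5 (1.74 ± 0.297) were lowest. In the co-cultured control HLA-C (469 ± 51.0) and HLA-B (147 ± 8.98) again led, ahead of B2M (116 ± 2.49). In the lone knockout the order opened with B2M at 127 ± 3.37, HLA-C at 98.2 ± 13.6, HLA-E at 69.1 ± 5.43 and TAPBP at 67.2 ± 5.72, with HLA-B ranked 5 at 36.8 ± 4.12 (all CPM per kilobase, SD, n = 3). B2M and HLA-C did not overlap there, while HLA-E and TAPBP did. In the co-cultured knockout B2M reached 291 ± 9.33 CPM per kilobase, above HLA-C at 162 ± 37.3 and HLA-E at 105 ± 19.0. With the length of all exons joined in place of the principal transcript, HLA-E was first and B2M was ranked 3 in the lone knockout, and in the co-cultured knockout HLA-C (99.2) was first, ahead of HLA-E (92.2) and B2M (81.5 CPM per kilobase of joined exons). The top of the order in both knockout groups thus depends on the length used, while HLA-C stayed first in both control groups.

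Across the 12 libraries, HLA-B and HLA-C varied together (Pearson r = 0.979 on log2 CPM), and so did HLA-E and PSMB9 (r = 0.933) and HLA-E and NLRC5 (r = 0.902). HLA-C and B2M did not (r = -0.54), and TAP1 and TAP2, which form 1 transporter, had r = -0.07. These correlations describe 4 groups of 3 libraries that share composition and depth. By the same measure, the 4 genes outside the list whose log2 CPM was most like the members' mean standardised level, of 10252 compared, were CYTH2 (r = 0.987), MAN2B1 (0.979), ELF3 (0.971) and AGTRAP (0.971). ELF3, an epithelial transcription factor, averaged 215 CPM in the lone and 199 CPM in the co-cultured control, and 138 CPM in the lone and 224 CPM in the co-cultured knockout. MAN2B1, a lysosomal mannosidase, averaged 96.3, 83.5, 66.9 and 114 CPM in the same order, again lowest in the lone knockout.

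A further 39 genes of the pathway were listed by role, and all 39 were tested. Between lone knockout and lone control, 9 were called higher and 14 lower, where 28% of all genes were higher and 28.6% lower. In the co-cultured against the lone knockout, 8 were called higher and 0 lower, with a median log2 fold change of 0.25 against 0.01 over all genes. At that contrast 5.97% of all genes were called higher. Between the co-cultured groups 8 were higher and 7 lower, against 24.1% and 25.3% of all genes. The counts by role below stand beside the same shares, with 56.6% of all genes called between the lone groups and 11.4% between the knockout groups, and are descriptions of small lists. In the control 0 were called, as were 0% of all genes. In the interaction 1 of the 39, the NKG2D ligand gene MICB, was called (log2 1.03, SE 0.18, edgeR adjusted p = 0.0125), where 1.8% of all genes were.

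Of 3 other heavy chains, 2 were lower and 1 higher in the lone knockout than in the lone control, and 2 were higher in the knockout with co-culture than without. HLA-F, a nonclassical heavy chain, was at 13.02, 14.2 and 20.4 CPM in the lone control libraries and 5.46, 5.48 and 6.27 CPM in the lone knockout, without overlap. That is a log2 difference of -1.47 (SE 0.24, edgeR adjusted p = 0.000219). In the co-cultured knockout HLA-F was at 10.5, 11.9 and 8.02 CPM, above all lone knockout libraries (log2 0.82, SE 0.24, edgeR adjusted p = 0.0440). That call was lost in 10 of 20 alternatives, with edgeR adjusted p up to 0.154. Among them were the fits without each library other than lone control replicates 1 and 3, co-cultured control replicate 3 and co-cultured knockout replicate 3. MR1, which presents microbial metabolites to MAIT cells and also pairs with B2M, differed in the opposite direction to HLA-F between genotypes. It was at 10.1, 13.7 and 10.2 CPM in the lone control libraries, 26.2, 24.2 and 22.3 CPM in the lone knockout group and 49.97, 39.99 and 49.5 CPM in the co-cultured knockout. MR1 was called higher both in the lone knockout group (log2 1.10, SE 0.18, edgeR adjusted p = 0.000179) and in co-culture (log2 0.94, SE 0.17, edgeR adjusted p = 0.00516). With GC offsets the former value was 0.65 (edgeR adjusted p = 0.00144).

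Of 8 proteasome genes, 1 was higher and 3 lower in the lone knockout, and 1 was higher in co-culture. PSMB8, the immunoproteasome subunit encoded beside PSMB9, had a mean of 22.4 ± 6.17 CPM in the lone control group and 47.1 ± 8.84 CPM in the lone knockout group (SD, n = 3 each; log2 1.07, edgeR adjusted p = 0.00174), unlike PSMB9. The ratio of PSMB9 to PSMB8 counts was 0.918 ± 0.0447 in the lone control group and 0.422 ± 0.0555 in the lone knockout. PSMB5, a constitutive catalytic subunit, was lower in the lone knockout group (log2 -0.67, edgeR adjusted p = 0.00954). PSME2, a subunit of the proteasome activator PA28, was higher in co-culture at 190, 197 and 158 CPM against 103, 129 and 118 CPM alone (log2 0.64, SE 0.16, edgeR adjusted p = 0.0228). The PSME2 call was lost without lone knockout replicate 1, 2 or 3 and without co-cultured knockout replicate 1 or 2, with edgeR adjusted p from 0.0520 to 0.108, and in a fit of the 6 knockout libraries by themselves (0.0551). PSME1, its partner, did not pass the test (log2 0.42, edgeR adjusted p = 0.0767). It was called without co-cultured knockout replicate 3 (0.50, edgeR adjusted p = 0.0244), with GC offsets (0.30), with scaling by library size alone (0.36), with no filter on low counts (0.55) and by DESeq2 (0.49).

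Of 6 trimming and loading genes, 3 were higher and 2 lower in the lone knockout, and 1 was higher in co-culture. CALR, a chaperone of the loading complex, had a mean of 1457 ± 323 CPM in the lone control group and 679.9 ± 64.1 CPM in the lone knockout group (log2 -1.10, edgeR adjusted p = 0.00017). In co-culture it had a mean of 1030.1 ± 123 CPM (log2 0.60, edgeR adjusted p = 0.0436), a call lost in 12 of 20 alternatives, with edgeR adjusted p up to 0.167. Those 12 included all fits that leave out a library except lone control replicates 1 and 3 and co-cultured knockout replicate 3. ERAP2, a peptide-trimming enzyme, was at or below 1.52 CPM in the lone knockout group and 0.273 CPM in the lone control libraries, so its log2 difference of 2.71 (SE 0.67, edgeR adjusted p = 0.00415) rests on few counts. TAPBPL, a second peptide editor, was not called in co-culture (log2 0.59, edgeR adjusted p = 0.135), but was without co-cultured knockout replicate 3 (0.74, edgeR adjusted p = 0.0309).

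Of 10 transcription factors, 1 was higher and 2 lower in the lone knockout, and 1 was higher in co-culture. That 1 was IRF1, an interferon-induced activator that is known to bind ISRE sequences. IRF1 was at 29.4, 38.4 and 36.4 CPM in the lone knockout group and 69.5, 77.1 and 54.5 CPM in co-culture, without overlap (log2 0.95, SE 0.16, edgeR adjusted p = 0.00351). RFXANK, part of the RFX complex on which NLRC5 acts, was lower in the lone knockout (92.9 ± 19.5 against 28.4 ± 6.85 CPM, log2 -1.71, edgeR adjusted p = 6.65e-05), and with GC offsets its value was -0.99. NFYC, a subunit of the factor that binds CCAAT, was at 45.3, 54.9 and 57.2 CPM in the lone control group and 33.8, 33.8 and 38.8 CPM in the lone knockout, without overlap (log2 -0.57, SE 0.14, edgeR adjusted p = 0.00318). NFYA, another subunit of it, was not called in co-culture (log2 -0.58, edgeR adjusted p = 0.102), and was called lower without co-cultured knockout replicate 3 (-0.79, edgeR adjusted p = 0.0131) and with GC offsets (-0.45, edgeR adjusted p = 0.0219).

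Of 7 interferon receptor and kinase genes, 3 were higher and 2 lower in the lone knockout, and 1 was higher in co-culture. JAK1, a kinase of both interferon receptor types, had a mean of 68.2 ± 17.0 CPM in the lone control group and 251 ± 28.2 CPM in the lone knockout group (log2 1.88, edgeR adjusted p = 4.05e-05). TYK2, a kinase of the type I receptor, was lower there (log2 -0.87, edgeR adjusted p = 0.00109), a call that ended with GC offsets (-0.12, edgeR adjusted p = 0.255). IFNGR2, a chain of the interferon-gamma receptor, was at 26.7, 30.3 and 30.8 CPM in the lone knockout group and 41.9, 43.7 and 42.3 CPM in co-culture, without overlap (log2 0.54, SE 0.12, edgeR adjusted p = 0.0133). The IFNGR2 call was lost without lone knockout replicate 1 and co-cultured knockout replicate 1 or 2, with edgeR adjusted p from 0.0502 to 0.0733, and in a fit of the 6 knockout libraries by themselves (0.0618). IFNGR1, the ligand-binding chain, had overlapping groups and was not called (log2 0.94, edgeR adjusted p = 0.0815). With GC offsets it was (1.45, edgeR adjusted p = 2.44e-06), as it was with RLE scaling, with no filter on low counts, by DESeq2 and without co-cultured knockout replicate 2 (1.21, edgeR adjusted p = 0.0321).

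Of 5 genes for ligands of NKG2D, the activating receptor through which natural killer cells see stressed cells, 3 were lower in the lone knockout and 2 were higher in co-culture. MICB was at 40.6, 49.9 and 50.9 CPM in the lone control libraries, 12.6, 12 and 12.9 CPM in the lone knockout group and 25.2, 24.5 and 24.9 CPM in the co-cultured knockout. The knockout groups were tight and far apart. Its log2 fold changes were -1.92 (SE 0.13, edgeR adjusted p = 1.09e-07) between genotypes and 0.99 (SE 0.13, edgeR adjusted p = 0.000561) in co-culture. MICA was lower in the lone knockout group (log2 -1.27, edgeR adjusted p = 4.76e-05). ULBP2 was at 5.76, 5.33 and 4.50 CPM in the lone knockout group and 11.9, 14.1 and 11.2 CPM in co-culture (log2 1.25, SE 0.22, edgeR adjusted p = 0.00386).

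**Figure D5:**
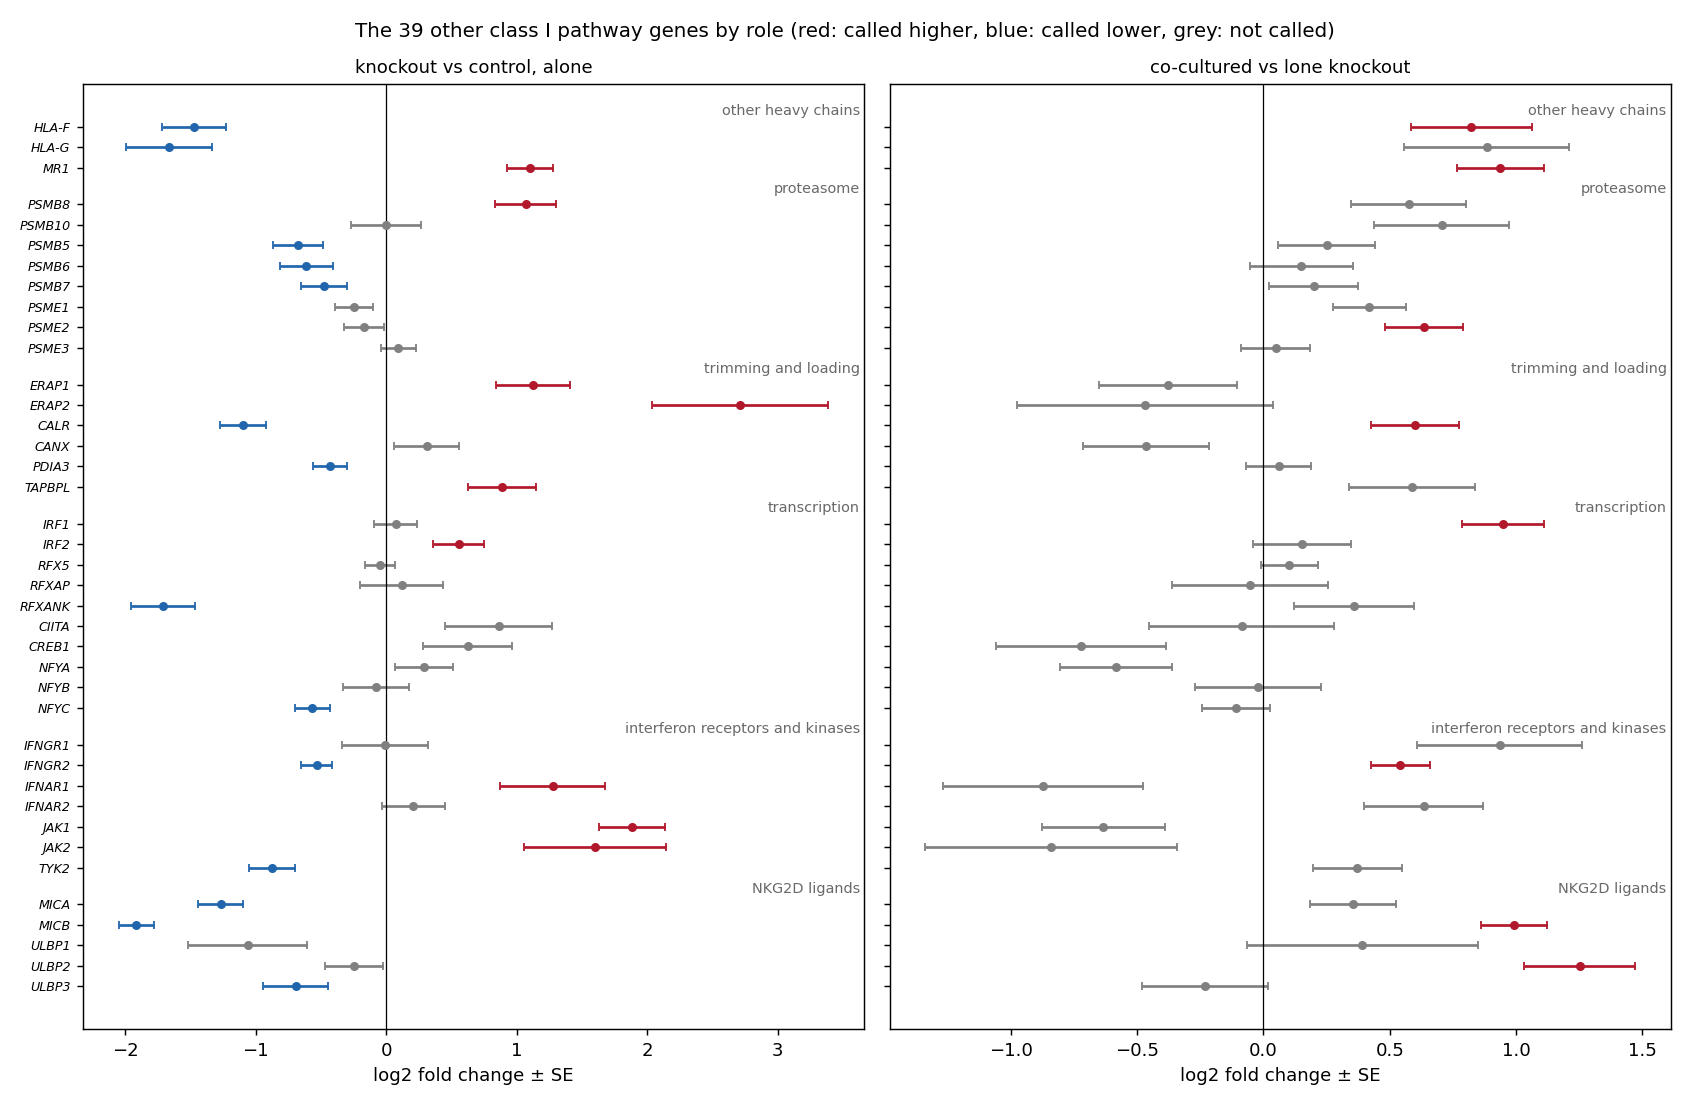
Log2 fold changes with bars of 1 SE for the 39 other genes of the pathway, by role, in the lone knockout against control and in the co-cultured against lone knockout, with colour by edgeR call. The left panel holds 9 red and 14 blue genes, the right panel 8 red and 0 blue.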

How the data were processed

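The authors deposited raw read counts by Ensembl identifier for 12 libraries of total RNA (miRNeasy columns, NEBNext Ultra RNA kit, per the labels). The submitters' processing notes name FastQC, STAR 2.7.9a, featureCounts, R 4.2.1, DESeq2 1.36.0 and GRCh38/hg38, and the strand setting and annotation release are not given in the sources used here. Counts were filtered with filterByExpr, TMM-scaled and tested with edgeR 4.0.16 (R 4.3.3) in 1 quasi-likelihood model of 4 group means over all 12 libraries, two-sided, adjusted by Benjamini-Hochberg over 16768 genes. Symbols matched 42045 identifiers, and 58366 were in GENCODE 29. In the shallowest library 1 CPM was 14.9 counts, and the biological coefficient of variation was 22.1%. No 2 libraries of the same group agreed within sampling noise. GC offsets were natural splines (5 degrees of freedom) on transcript GC content, fitted per library to the deviation of log2 CPM from the mean of all 12 libraries. They therefore also take out GC-related differences between groups. Nothing says that replicates were separate cultures, so p-values measure the spread between these libraries. The 20 alternatives are described in the closing section, and the fit was tested on simulated data. The members and lists were chosen with earlier results of these data known. From each role, the 2 other genes with the smallest p in the lone genotype comparison and the 2 in the knockout co-culture comparison are named, with exceptions where a called gene was counted. A few genes are not reported here.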

Additional observations from a re-analysis of the deposited data

Results flagged for a closer look

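The co-culture difference of B2M was larger in the knockout than in the libraries labelled control, by 0.85 on the log2 scale (SE 0.19, edgeR adjusted p = 0.0406 by the interaction test). B2M was higher in co-culture in 3 of 3 knockout libraries than in any lone knockout library, by log2 1.20, and by 0.35 in the control, where the difference did not pass the test. The interaction call ended without each of 9 of the 12 libraries in turn.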

How the results depend on the processing

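The 8 other settings were scaling by library size alone, RLE scaling, no filter on low counts, GC offsets, a replicate block, that block with GC offsets, a fit of only the groups compared (not for the interaction) and DESeq2, and each of 12 libraries was left out in turn. HLA-B and HLA-C between genotypes, HLA-E, B2M and NLRC5 between the co-cultured groups and HLA-B and B2M in the co-cultured knockout kept direction and call in all 20. Where a result altered, the cause was not tested.

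Lone knockout against control: 3 members were called with no filter, and 3 to 5 with a library left out (3 without lone control replicate 2). Scaling by library size alone moved the all-gene median (log2) from 0.09 to 0.24, turning HLA-E to 0.10 and PSMB9 to 0.15. Relative to that median, both lay below it. GC offsets turned HLA-E to 0.52, B2M to -0.11 and TAPBP to 0.25, and with the replicate block as well these were 0.52, -0.12 and 0.25. With a library left out, HLA-E ran from -0.223 to 0.0604, PSMB9 from -0.244 to 0.20 and NLRC5 from -0.00348 to 0.228.

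Co-cultured against lone knockout: 1907 genes and 2 members were called. There were 3340 genes and 6 members with no filter, 3239 and 6 with DESeq2, 4953 and 5 with GC offsets, 4219 and 5 with the block and GC offsets, 664 genes with only the groups compared and 1080 with the replicate block, and 6 members with scaling by library size alone. With a library left out, 536 to 5680 genes and 2 to 8 members were called, 5680 being without co-cultured knockout replicate 3. TAP2 turned to -0.000285 with GC offsets and -0.0080 with the block as well, and ran from -0.037 to 0.132 with a library left out.

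Between the co-cultured groups, the TAP2 call ended with the replicate block (-0.45, edgeR adjusted p = 0.0504), and TAP1 was called with the block and GC offsets (0.39, edgeR adjusted p = 0.00877). TAPBP turned to 0.0373 with no filter, 0.266 with GC offsets and 0.268 with the block as well, and ran from -0.194 to 0.0376 with a library left out. In the control, 2 genes were called with no filter. HLA-B turned to -0.0285 with RLE scaling and -0.0245 with DESeq2, and ran from -0.165 to 0.12 with a library left out. TAPBP turned to 0.0742 with GC offsets and 0.0737 with the block as well. With a library left out, TAP2 ran from -0.0114 to 0.101, TAP1 from -0.267 to 0.0707 and PSMB9 from -0.339 to 0.0527.

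Interaction: 301 genes (253 higher and 48 lower) and 1 member were called. There were 1342 genes and 4 members with no filter, 1580 and 4 with GC offsets (762 higher and 818 lower), 974 genes with the block and GC offsets, 872 and 2 with DESeq2, 179 and 0 with the replicate block, and 119 to 3623 genes and 0 to 5 members with a library left out. B2M was weaker with scaling by library size alone (0.75, edgeR adjusted p = 0.138) and with the block (0.84, edgeR adjusted p = 0.09). TAP2 turned to -0.101, -0.00448 and -0.0103 with scaling by library size alone, GC offsets and the block with GC offsets, and ran from -0.0878 to 0.0811 with a library left out.

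Same-numbered libraries did not deviate together in every pair of groups: correlations of their deviations ran from -0.87 to 0.79, and at most 4 of 6 libraries correlated best with their own number, so the numbers name libraries only.

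HLA genes, TAP2 and PSMB9 share sequence or exons with other genes, and without a stated strand setting, reads of PSMB8-AS1 cannot be told apart from those of TAP1 and PSMB9. Counts were lowest for NLRC5 (168 to 713 a library), TAP2 (214 to 506) and PSMB9 (255 to 1199). Against control, genotype and origin of the libraries cannot be told apart.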
